A study of Mus musculus with 15 samples.

Results

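The interleukin-6 (IL-6) family is a set of secreted cytokines that signal through a shared receptor chain to the transcription factor STAT3. Its mRNAs were followed here in mouse liver through 9 genes, taken as the rows with the symbols Il6, Lif, Osm, Il6ra, Il6st, Lifr, Osmr, Stat3 and Socs3 among the 24411 genes of the count files. All 9 were found, and 7 of them had enough counts to enter the fit of 13055 genes, while Il6 and Osm were too low. The ligands IL-6, leukaemia inhibitory factor (LIF) and oncostatin M (OSM) each bind a receptor complex that holds gp130, the product of Il6st, together with the IL-6 receptor (Il6ra), the LIF receptor (Lifr) or the OSM receptor (Osmr). The complex activates JAK kinases, which phosphorylate STAT3. STAT3 then enters the nucleus and switches on target genes, among them Socs3, whose product binds the activated receptor and shuts it down. In hepatocytes this route drives the acute phase response, the release of plasma proteins during infection and injury.

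Poly(A) RNA of liver was sequenced in 15 libraries: 6 labelled LATS KO, 5 labelled Yap OE and 4 labelled TdTomato, called LATS_KO, YAP_OE and TdTomato below. LATS1 and LATS2 are the Hippo pathway kinases that restrain the coactivator YAP. The series' design text gives a LATS knockout, YAP overexpression and wild type, and TdTomato is the name of a red fluorescent protein. The labels give no allele, promoter, Cre driver, vector, cell type targeted, age or time, and their extraction text describes mice of another design that does not match these groups. What the 3 groups share beyond being mouse liver is therefore not stated in the labels. Nothing in the labels ties a library to an animal of its own, and the p-values therefore reflect the spread among these 15 libraries, part of which may be technical.

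Depth ranged from 6166680 to 28225360 gene counts per library, and 1 count was worth 0.0307 to 0.111 CPM (counts per 1000000, scaled to library size with TMM factors). TdTomato 1 and LATS_KO 3 stood apart: 78.5% to 89.9% of their reads were unmapped and 8501 to 9710 genes were detected, against 2.53% to 16.7% and 13372 to 15641 in the other 13. Yap1 was higher in YAP_OE than in TdTomato (log2 fold change 0.82 ± 0.17, standard error (SE), edgeR adjusted p = 0.00433). Lats1 and Lats2 did not pass the test in LATS_KO against TdTomato (log2 fold changes -0.94 ± 1.00 and 0.58 ± 0.75, adjusted p = 0.620 and 0.695 in edgeR). TdTomato 1 held 0 CPM of both. Lats1 was at 44.5, 46 and 28.7 CPM in TdTomato 2 to 4, above all LATS_KO libraries (0 to 27.4 CPM). Lats2 was at 19.6, 19.1 and 17.4 CPM in TdTomato 2 to 4, within the LATS_KO range of 7.67 to 41 CPM. Counts over a whole gene do not check a deletion of some of its exons, so LATS_KO stands throughout for the libraries labelled so. In the markers of liver cell types, 7 of the 8 hepatocyte markers were abundant in all groups. The exception was Ass1, with 36 counts in TdTomato, 23 in LATS_KO and 9 in YAP_OE. The T and NK cell markers summed to at most 2.59 CPM in any library and the B cell markers to at most 0.745 CPM. The cholangiocyte, Kupffer cell, monocyte and macrophage, and stellate cell markers differed between groups, and they are given beside the results they move with.

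STAT3 binds a short palindrome in the promoters of its targets, and Socs3 is a textbook example. Promoter windows of the 250 bases before the RefSeq start were found for 8 of the 9 genes, with 9 windows in all because Lifr has a pair of starts. The STAT element TTCNNNGAA reads the same on both strands. It was in 1 of the 9 windows, that of Socs3, against 7.02% of the 32851 promoters of the table. The AP-1 element TGANTCA, also its own reverse complement, was in the windows of Il6 and Lif, against 6.75% of all promoters. The TEAD element GGAATG, searched on both strands because YAP acts through TEAD factors, occurred at 2 places in the Stat3 window and in no other window of the 9, against 12.6% of all promoters. The AP-1 and TEAD searches were chosen after the values were seen. A match describes the letters in the window and not a bound site. The Socs3 and Lif stretches are shown because they belong to the pathway's feedback inhibitor and to the ligand that changed. Capitals mark the STAT element in Socs3 and the AP-1 element in Lif, with no overlap between motifs, and both are 5′ to 3′ on the gene's strand (RefSeq, GRCm38.p6). Each stretch is cut where an annotated exon of the gene begins. It leaves out the rest of the window next to the RefSeq start, which runs on to 4257567 for Lif and to 117969367 for Socs3.
Lif, chr11:4257318-4257556, plus strand, before the first exon: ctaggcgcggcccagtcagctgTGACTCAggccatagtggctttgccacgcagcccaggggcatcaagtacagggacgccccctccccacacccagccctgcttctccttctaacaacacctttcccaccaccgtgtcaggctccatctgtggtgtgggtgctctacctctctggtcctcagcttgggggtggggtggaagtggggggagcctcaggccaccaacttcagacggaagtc
Socs3, chr11:117969452-117969616, minus strand, before the RefSeq first exon and in an intron of a longer non-coding transcript: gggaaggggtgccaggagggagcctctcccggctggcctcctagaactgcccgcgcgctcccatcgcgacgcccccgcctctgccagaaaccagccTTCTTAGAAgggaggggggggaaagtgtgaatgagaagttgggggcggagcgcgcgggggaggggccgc

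Of the 7 genes in the fit, Lif and Osmr were higher in LATS_KO than in TdTomato and none was lower, where 11.0% of all genes tested passed in either direction. In YAP_OE against TdTomato, Lif and Osmr were higher and Lifr was lower, where 28.7% of all genes passed (17.9% higher and 10.8% lower). Il6ra, Il6st, Stat3 and Socs3 passed in neither comparison. None of the 7 differed between YAP_OE and LATS_KO in edgeR, in which 0.988% of all genes passed. None of them had an unadjusted p under 0.05 there either. DESeq2 also called none of them, and limma voom called 5. The median log2 fold change of the 7 genes was 0.55 in LATS_KO and 0.28 in YAP_OE against TdTomato, beside 0.13 and 0.17 over all genes tested. Both comparisons use the same 4 TdTomato libraries. In YAP_OE, Lif and Osmr lay above TdTomato with no overlap between libraries, as did 28.3% of all genes tested, and Lifr lay below with no overlap, as did 13.4%. In LATS_KO none of the 7 separated from TdTomato without overlap, where 6.65% of all genes did as higher and 1.90% as lower. None separated YAP_OE from LATS_KO either, where 4.76% and 1.95% did. Tests are edgeR's quasi-likelihood test, two-sided, with p adjusted by Benjamini-Hochberg over the 13055 genes and a threshold of 0.05.

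**Figure D1:**
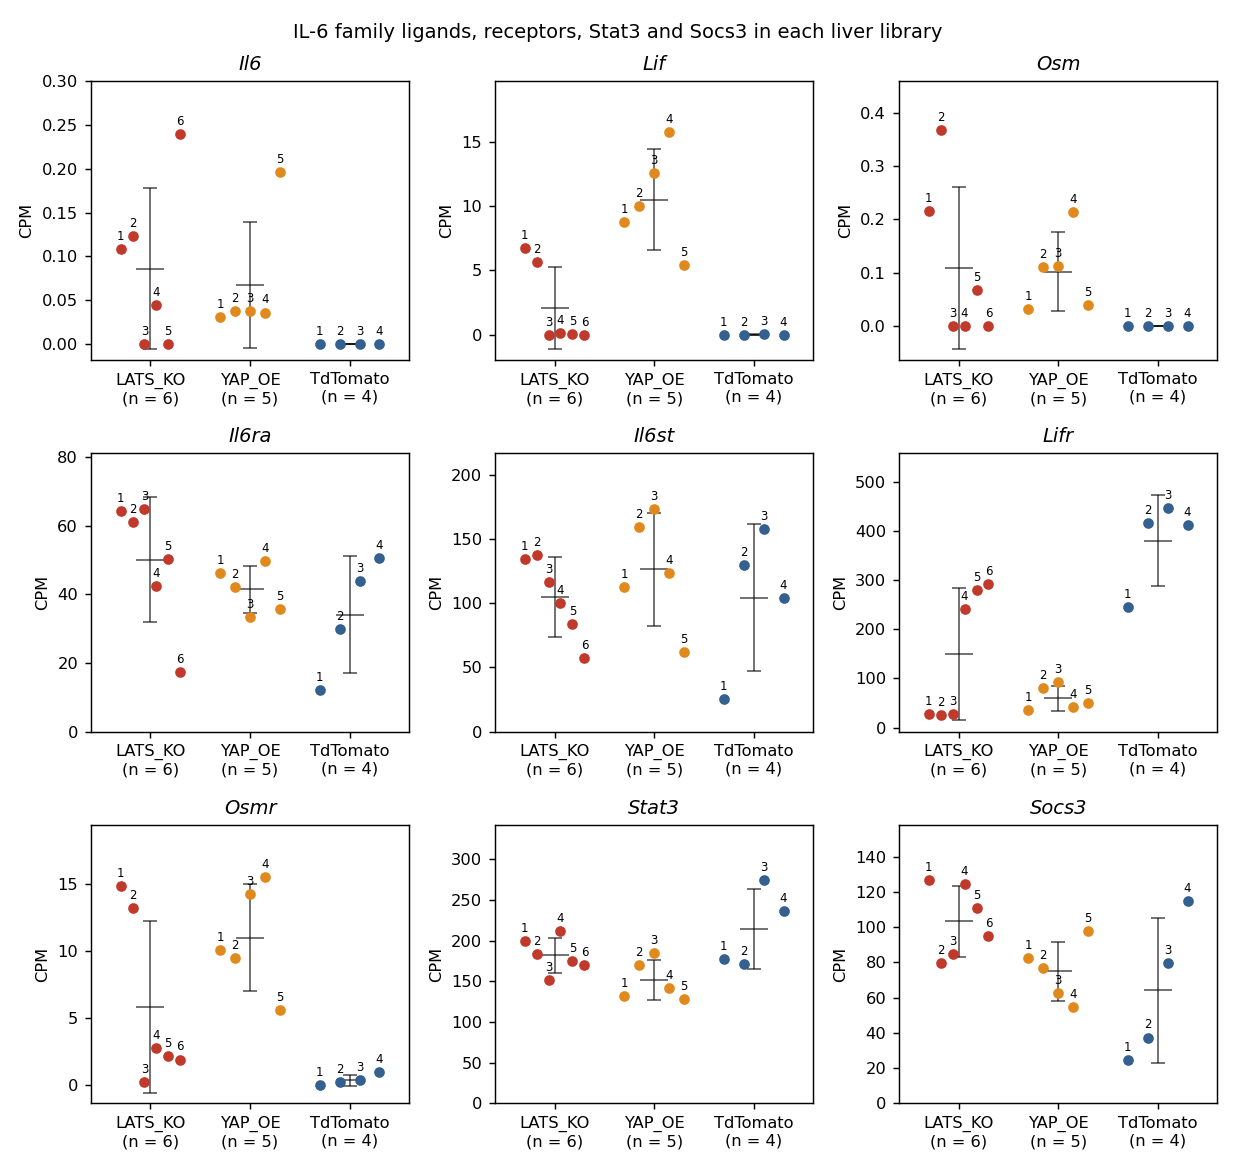
CPM (y axis, a scale of its own in each panel) of the 9 genes in each library, by group on the x axis. Points are libraries with their replicate number, and lines and bars are the mean ± SD. Lif and Osmr are high in all 5 YAP_OE libraries and in LATS_KO 1 and 2, where Lifr is low, and Stat3 and Socs3 overlap between groups.

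Lif, on chromosome 11 at 4257557 to 4272514 (plus strand), encodes leukaemia inhibitory factor, a cytokine that signals through LIFR and gp130. It was at 6.71 CPM in LATS_KO 1, 5.68 CPM in LATS_KO 2 and between 0 and 0.132 CPM in LATS_KO 3 to 6. In YAP_OE it was at 8.77, 9.97, 12.5, 15.8 and 5.41 CPM, and in TdTomato it was at 0.0794 CPM in TdTomato 3 and 0 in the other 3 libraries. All 5 YAP_OE libraries lay above all TdTomato libraries, whereas LATS_KO split into 2 high libraries and 4 at or near the TdTomato level. The totals were 313 counts in LATS_KO, 1468 in YAP_OE and 1 in TdTomato. The ratio of CPM was 177 for LATS_KO over TdTomato (exact 95% interval 31.5 to 6998, counting error only) and 678 for YAP_OE over TdTomato (121 to 26793). Without TdTomato 3, which holds the single control count, TdTomato was at 0 and the ratios became lower bounds: at least 47.4-fold higher in LATS_KO and at least 182-fold higher in YAP_OE, against 3 counts over the group.

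The fitted log2 fold change of Lif was 6.58 ± 1.99 (SE) in LATS_KO against TdTomato (edgeR, adjusted p = 0.0455) and 8.88 ± 2.11 in YAP_OE against TdTomato (adjusted p = 0.0079). In YAP_OE against LATS_KO it was 2.30 ± 1.20 (adjusted p = 0.408, 95% interval -0.25 to 4.86). The YAP_OE call was kept without any 1 library, with an adjusted p of at most 0.029, and its log2 value was 10.84 without TdTomato 3. The LATS_KO call was lost without any 1 of TdTomato 1 to 4, LATS_KO 1, LATS_KO 2 or YAP_OE 1 to 5, with adjusted p between 0.061 and 0.122 and a log2 value of 8.54 without TdTomato 3. It was also lost in limma voom with quality weights (1.63, adjusted p = 0.226) and with the replicate number as a block (adjusted p = 0.113).

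Il6, on chromosome 5 at 30013114 to 30019981 (plus strand), encodes the cytokine that gives the family its name. It had 11 counts in all of LATS_KO, 9 in all of YAP_OE and 0 in TdTomato. LATS_KO 1 to 6 held 0.108, 0.123, 0, 0.0438, 0 and 0.24 CPM of Il6, and YAP_OE 1 to 5 held 0.0308, 0.037, 0.0374, 0.0357 and 0.196 CPM. Il6 was detected in 4 of 6 LATS_KO libraries and in 5 of 5 YAP_OE libraries, through 1 to 5 counts a library. Against 3 counts over the TdTomato group, its pooled CPM was 2.07-fold higher in LATS_KO and 1.39-fold higher in YAP_OE. These folds take the 11 and 9 counts as exact and do not cover their counting error. Exact two-sided permutation tests of the mean CPM gave p = 0.105 for LATS_KO and p = 0.0397 for YAP_OE against TdTomato. Adjusted over the 6 such tests of Il6 and Osm these were 0.210 and 0.119, so neither difference passed, and the smallest p the design allows is 0.00476 and 0.00794.

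Osm encodes oncostatin M, a product mainly of activated macrophages and neutrophils, and lies close to Lif on chromosome 11 (4236420 to 4241026, plus strand). It had 17 counts in LATS_KO, 14 in YAP_OE and 0 in TdTomato. It was at 0.216, 0.368 and 0.0674 CPM in LATS_KO 1, 2 and 5 and at 0 in the other 3, and at 0.0308, 0.111, 0.112, 0.214 and 0.0392 CPM in YAP_OE 1 to 5. As for Il6, every YAP_OE library held at least 1 count and no TdTomato library did. The pooled CPM of Osm was 3.20-fold higher in LATS_KO and 2.15-fold higher in YAP_OE than 3 counts over the TdTomato group. These folds take the 17 and 14 counts as exact and do not cover their counting error. The exact permutation tests gave p = 0.300 and p = 0.0238, adjusted to 0.450 and 0.119, and did not pass. In an edgeR fit without a filter on low counts, neither Il6 nor Osm passed in any comparison, with adjusted p of 0.0970 and 0.118 in LATS_KO and of 0.0795 and 0.0842 in YAP_OE against TdTomato.

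Markers of cells known to make these cytokines moved with the groups. The summed CPM of 8 monocyte and macrophage markers was 95.2 to 687 in LATS_KO, 266 to 465 in YAP_OE and 0.0774 to 8.09 in TdTomato, and 7 of the 7 markers tested were higher in each of LATS_KO and YAP_OE. The 7 Kupffer cell markers summed to 13.1 to 556 CPM in LATS_KO, 149 to 423 in YAP_OE and 2.70 to 12.02 in TdTomato, and 7 and 6 of the 7 were higher in LATS_KO and YAP_OE. The 6 neutrophil markers summed to at most 14.9 CPM in LATS_KO, 3.29 in YAP_OE and 2.40 in TdTomato, with Mmp8 at 0 in all TdTomato libraries. The TdTomato value of 2.40 is Cxcr2 in TdTomato 1 alone. Of 3 neutrophil markers tested, Csf3r was higher in LATS_KO (3.74 log2, edgeR adjusted p = 0.0326) and in YAP_OE (3.28, adjusted p = 0.0292). Beside these marker counts, 11.0% of all genes tested passed in either direction in LATS_KO, and 17.9% passed as higher in YAP_OE. In bulk liver, fewer cells of a type and less RNA per cell cannot be told apart. The part of these cells in the ligand values was not tested.

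Osmr, the OSM receptor chain, lies on chromosome 15 at 6813577 to 6874969 (minus strand), near Lifr at 7090614 to 7197489 (plus strand). LATS_KO 1 and 2 held 14.8 and 13.2 CPM of Osmr, LATS_KO 4 to 6 held 2.81, 2.16 and 1.92 CPM, and LATS_KO 3 held 0.222 CPM. Osmr was at 10.1, 9.45, 14.3, 15.5 and 5.61 CPM in YAP_OE and at 0, 0.221, 0.397 and 0.958 CPM in TdTomato. All YAP_OE libraries and 5 of 6 LATS_KO libraries lay above the highest TdTomato library, and the exception was LATS_KO 3. The log2 fold change was 3.84 ± 1.11 (SE) in LATS_KO (edgeR, adjusted p = 0.0383) and 4.75 ± 1.18 in YAP_OE (adjusted p = 0.00925) against TdTomato. Between YAP_OE and LATS_KO it was 0.90 ± 0.86 (adjusted p = 0.743, 95% interval -0.92 to 2.72). The YAP_OE call was kept without any 1 library (adjusted p at most 0.0314), with a log2 value of 5.69 without TdTomato 4. The LATS_KO call was lost without any 1 of TdTomato 1 to 4, LATS_KO 1, LATS_KO 2 or YAP_OE 1 to 5 (adjusted p 0.0521 to 0.109, log2 value 4.79 without TdTomato 4), with the replicate block (0.117) and in a fit of LATS_KO and TdTomato alone (0.178).

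Lifr, the LIF receptor chain, is abundant in hepatocytes. LATS_KO 1 to 3 held 27.9, 26.3 and 28.2 CPM of Lifr, and LATS_KO 4 to 6 held 240, 280 and 293 CPM. Lifr was at 34.9, 81.5, 92.3, 41 and 49.2 CPM in YAP_OE and at 244, 417, 447 and 413 CPM in TdTomato. All YAP_OE libraries lay below the lowest TdTomato library, and LATS_KO formed a low set of 3 and a set of 3 that reached into the TdTomato range through TdTomato 1 alone (244 CPM), a library with mostly unmapped reads. The other TdTomato libraries, at 413 to 447 CPM, lay above all 6 LATS_KO libraries. Lifr fell by 2.67 ± 0.71 (log2, SE) in YAP_OE against TdTomato (edgeR, adjusted p = 0.0128), and this call was kept without any 1 library (adjusted p at most 0.0354). In LATS_KO against TdTomato the log2 fold change was -1.35 ± 0.65 (adjusted p = 0.213, 95% interval -2.74 to 0.041), it did not pass without TdTomato 1 either, and in YAP_OE against LATS_KO it was -1.32 ± 0.64 (adjusted p = 0.358). The 8 hepatocyte markers, mostly Alb, summed to 38654 to 171113 CPM in LATS_KO, 73938 to 132088 in YAP_OE and 95066 to 165813 in TdTomato. The sum was 85563, 76266 and 38654 CPM in LATS_KO 1 to 3 and 164402, 150512 and 171113 CPM in LATS_KO 4 to 6. Alb, Apoa1, Ttr, Cps1, Cyp2e1 and Pck1 were each lower in LATS_KO 1 to 3 than in LATS_KO 4 to 6, as Lifr was. Hnf4a and Ass1 overlapped between these sets. Of the 7 markers tested, Cps1 and Pck1 were lower in YAP_OE, where 10.8% of all genes tested were lower. The part of hepatocytes in the Lifr values was not tested.

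Il6st encodes gp130, the chain shared by the whole family, and Il6ra the chain that binds IL-6. Il6st was at 134, 138, 117, 101, 83.6 and 57.1 CPM in LATS_KO, 113, 160, 174, 124 and 62.3 CPM in YAP_OE and 25.2, 130, 158 and 105 CPM in TdTomato. Il6ra was at 64.4, 61, 65, 42.4, 50.4 and 17.5 CPM in LATS_KO, 46.1, 42, 33.3, 49.8 and 35.8 CPM in YAP_OE and 12.2, 29.9, 43.8 and 50.6 CPM in TdTomato. The groups overlapped for both genes, and TdTomato 1 held the lowest value of each. For Il6st the log2 fold change was 0.0079 in LATS_KO (adjusted p = 0.994 in edgeR, 95% interval -0.86 to 0.87) and 0.28 in YAP_OE (adjusted p = 0.677, -0.63 to 1.18). Its sign in LATS_KO turned in limma voom (-0.61, adjusted p = 0.0410) and without TdTomato 1 and LATS_KO 3 (-0.35). For Il6ra it was 0.55 in LATS_KO (adjusted p = 0.397, -0.24 to 1.35) and 0.28 in YAP_OE (adjusted p = 0.638, -0.54 to 1.10), and without TdTomato 1 and LATS_KO 3 the YAP_OE value was -0.0011.

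**Figure D2:**
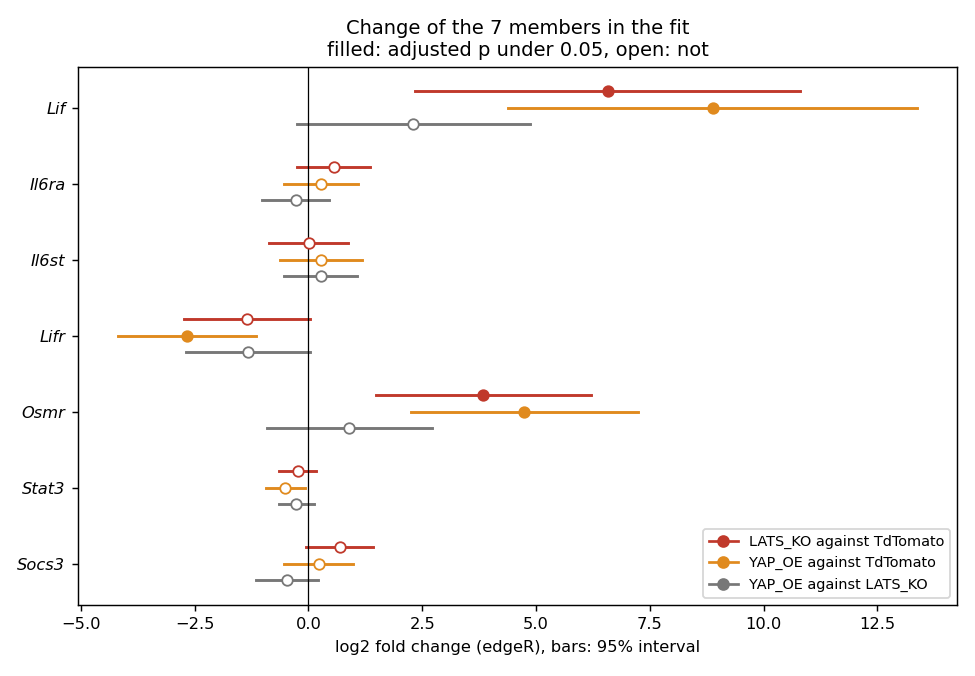
Log2 fold change (x axis, edgeR) of the 7 genes in the fit (y axis) in LATS_KO and in YAP_OE against TdTomato and in YAP_OE against LATS_KO, with 95% intervals as bars. Filled points have an adjusted p under 0.05: Lif and Osmr in both comparisons with TdTomato and Lifr in YAP_OE, while all YAP_OE against LATS_KO points are open.

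Levels of different genes were compared as CPM per kilobase of exon. In LATS_KO the order of the mean levels was Socs3 (35.8 ± 6.97, SD, n = 6), Stat3 (19.1 ± 2.24), Lifr (13.9 ± 12.5), Il6st (9.46 ± 2.80), Il6ra (5.80 ± 2.11), Osmr (0.483 ± 0.528), Lif (0.482 ± 0.733), Osm (0.0479 ± 0.0671) and Il6 (0.0354 ± 0.0379). In YAP_OE it was Socs3 (25.9 ± 5.84, SD, n = 5), Stat3 (15.9 ± 2.59), Il6st (11.4 ± 3.94), Lifr (5.55 ± 2.37), Il6ra (4.79 ± 0.800), Lif (2.41 ± 0.898), Osmr (0.907 ± 0.328), Osm (0.0447 ± 0.0325) and Il6 (0.0278 ± 0.0296). In TdTomato it was Lifr (35.3 ± 8.53, SD, n = 4), Stat3 (22.5 ± 5.17), Socs3 (22.2 ± 14.3), Il6st (9.41 ± 5.15), Il6ra (3.95 ± 1.96), Osmr (0.0325 ± 0.0338) and Lif (0.00457 ± 0.00913), with Il6 and Osm at 0. Lifr was the most abundant of the 9 mRNAs per length in TdTomato and stood below Socs3, Stat3 and Il6st in YAP_OE. Neighbours in the order whose means lay no further apart than their summed SDs were all pairs from Stat3 to Il6ra and from Osmr to Il6 in LATS_KO, all pairs from Stat3 to Il6ra and the pair Osm and Il6 in YAP_OE, and all pairs from Lifr to Il6ra and the pair Osmr and Lif in TdTomato.

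The balance of the receptor chains was also taken within each library, as a ratio of CPM per kilobase that does not depend on library size. Osmr was at 47.3% and 44.6% of Lifr in LATS_KO 1 and 2 and between 0.584% and 1.04% in LATS_KO 3 to 6. It was at 25.8%, 10.3%, 13.7%, 33.7% and 10.1% of Lifr in YAP_OE and at 0%, 0.0471%, 0.0790% and 0.206% in TdTomato. Lifr was at 21.4%, 19.7% and 24.9% of Il6st in LATS_KO 1 to 3 and at 246%, 345% and 528% in LATS_KO 4 to 6. It was at 31.8%, 52.6%, 54.7%, 34.1% and 81.3% of Il6st in YAP_OE and between 292% and 999.9% in TdTomato. Thus Lifr mRNA was below Il6st mRNA in all YAP_OE libraries and above it in all TdTomato libraries. The ratios were chosen after the levels were seen and are given as a description. Exact permutation tests of both mean ratios in the 3 comparisons were adjusted over these 6 tests. Lifr to Il6st in YAP_OE against TdTomato had an adjusted p of 0.0476, and the others had at least 0.0714. These p-values are no support of their own, since the choice followed the values.

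Bile duct markers followed the same libraries as Lif, Osmr and Lifr. The 7 cholangiocyte markers summed to 4443, 1971, 1350, 217, 108 and 145 CPM in LATS_KO 1 to 6, to 3790 to 6273 CPM in YAP_OE and to 45.1 to 61.4 CPM in TdTomato, where Cftr was at 0 in all libraries. Among those tested, Krt19, Sox9, Krt7 and Spp1 were higher in LATS_KO, and Krt19, Sox9, Epcam and Spp1 were higher in YAP_OE. Lif and Osmr were high in the libraries with the highest sums, with the exception of LATS_KO 3, where the sum was 1350 CPM, Lif was at 0 and Osmr at 0.222 CPM. Lifr was low in that library too. The markers of stellate cells and fibroblasts, which can express OSMR, summed to 0 to 17.2 CPM in LATS_KO, 26.4 to 174 in YAP_OE and 0 to 1.75 in TdTomato, with 4 and 7 of the 7 higher in LATS_KO and YAP_OE. Over all genes tested, 11.0% passed in either direction in LATS_KO and 17.9% as higher in YAP_OE. The sinusoidal endothelial markers summed to 16.997 to 277 CPM in LATS_KO, 113 to 182 in YAP_OE and 13.2 to 51.7 in TdTomato. The part of these cells in the Lif, Osmr and Lifr values was not tested.

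**Figure D3:**
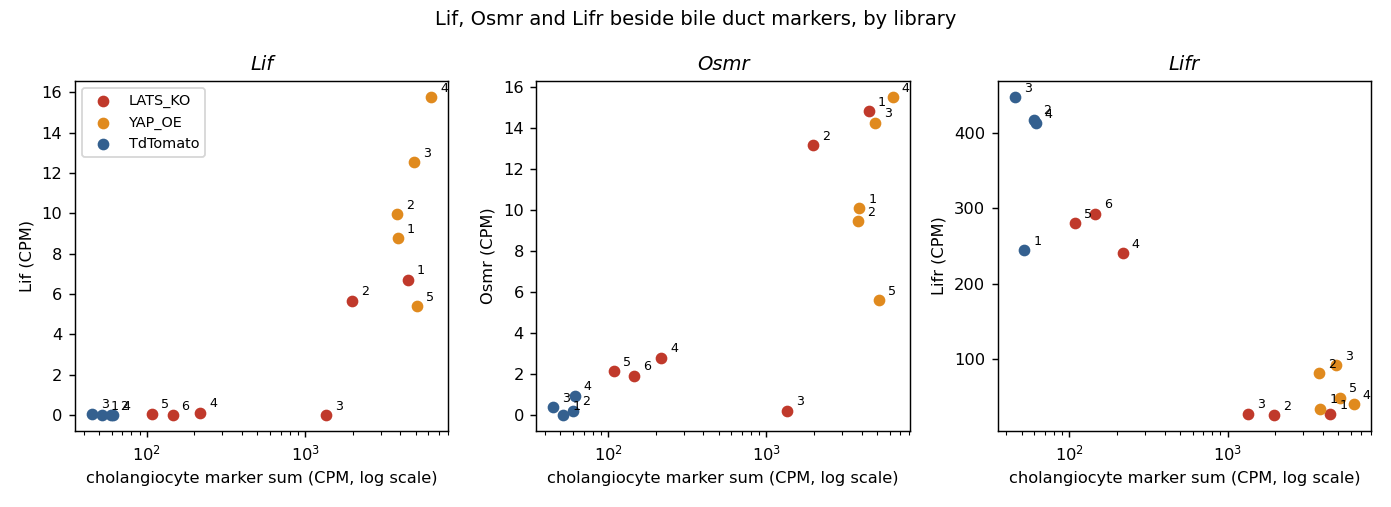
Lif, Osmr and Lifr in CPM (y axes) against the summed CPM of 7 cholangiocyte markers (x axis, log scale), with 1 point per library and its replicate number. The TdTomato libraries lie at sums of 45.1 to 61.4 and the YAP_OE libraries at 3790 to 6273, and LATS_KO spans 108 to 4443 with LATS_KO 3 low in all 3 genes.

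Stat3 lies on chromosome 11 (100885098 to 100939540, minus strand). It was at 200, 183, 152, 212, 175 and 170 CPM in LATS_KO, 132, 170, 185, 142 and 128 CPM in YAP_OE and 178, 171, 274 and 236 CPM in TdTomato. In YAP_OE, 4 of 5 libraries were below the lowest TdTomato library, and the groups overlapped. The log2 fold change was -0.24 ± 0.19 (SE) in LATS_KO (edgeR, adjusted p = 0.492) and -0.50 ± 0.20 in YAP_OE (adjusted p = 0.0722) against TdTomato. The YAP_OE value passed the threshold without TdTomato 1 (-0.59, adjusted p = 0.0423), without LATS_KO 3 (-0.50, 0.0476), without both (-0.59, 0.0226) and in limma voom (-0.39, 0.0273). The 95% interval of the YAP_OE change was -0.93 to -0.076. These counts measure Stat3 mRNA and not the phosphorylated protein through which the pathway acts.

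Socs3, the feedback inhibitor whose promoter stretch with the STAT element is printed above, lies on chromosome 11 at 117966079 to 117970047 (minus strand). It was at 127, 79.6, 84.5, 125, 111 and 95.2 CPM in LATS_KO, 82.7, 76.7, 62.5, 54.9 and 97.8 CPM in YAP_OE and 24.6, 37.4, 79.7 and 115 CPM in TdTomato. The TdTomato libraries spread the most, and TdTomato 4 reached the upper LATS_KO values. The log2 fold change was 0.69 ± 0.35 (SE) in LATS_KO (edgeR, adjusted p = 0.235, 95% interval -0.049 to 1.43) and 0.22 ± 0.36 in YAP_OE (adjusted p = 0.690) against TdTomato. In YAP_OE against LATS_KO it was -0.47 ± 0.32 (adjusted p = 0.579). The LATS_KO value passed in limma voom (1.05, adjusted p = 0.00797), and the YAP_OE value was -0.048 without TdTomato 1. Socs3 mRNA thus did not pass the test in the groups where Lif and Osmr did.

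Other ligands of the family were mostly near 0, with Clcf1 and Ctf1 the most abundant. Of 8 listed genes 3 were tested, and Clcf1, which encodes cardiotrophin-like cytokine factor, was higher in both groups. That is 1 of 3, where 11.0% of all genes passed in LATS_KO and 28.7% in YAP_OE. Clcf1 was at 11, 8.5, 4.33, 0.438, 0.405 and 0.421 CPM in LATS_KO, 19.2, 11.9, 16.6, 22.9 and 12.5 CPM in YAP_OE and 0, 0.221, 0.0794 and 0.335 CPM in TdTomato. Both groups lay above all TdTomato libraries. The log2 fold change was 4.58 ± 1.17 (SE) in LATS_KO (edgeR, adjusted p = 0.0214) and 6.57 ± 1.28 in YAP_OE (adjusted p = 0.00343) against TdTomato. The LATS_KO call of Clcf1 was lost without TdTomato 2, 3 or 4 (adjusted p 0.0504 to 0.0674), and its YAP_OE log2 value was 7.20 without TdTomato 4. The LATS_KO call was also lost in limma voom (1.46, adjusted p = 0.192) and with the replicate block (0.0649). Il11, for a cytokine of the same family, had 10 counts in LATS_KO, 39 in YAP_OE and 3 in TdTomato, a ratio of 1.88 for LATS_KO (exact 95% interval 0.484 to 10.6, counting error only) and 6.00 for YAP_OE (1.91 to 30.4). Ctf1, also tested, was at 4.12 to 13.1 CPM in LATS_KO, 9.46 to 16.3 CPM in YAP_OE and 2.44 to 8.67 CPM in TdTomato. YAP_OE lay above all TdTomato libraries but did not pass (1.31 ± 0.48 log2, edgeR adjusted p = 0.0525), and LATS_KO did not pass either (0.45, 0.595). Ctf2 had no count in any library.

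Of 5 other receptor chains 2 were tested, and neither passed in LATS_KO in edgeR, where Il11ra1 had an unadjusted p of 0.0314. Both passed in YAP_OE, in opposite directions, where 28.7% of all genes passed. In YAP_OE, Il27ra, the IL-27 receptor chain, was higher (3.13 ± 0.95 log2, edgeR adjusted p = 0.0234) at 0.524 to 0.902 CPM, against 0 to 0.192 CPM in TdTomato. Il11ra1, the IL-11 receptor chain, was lower (-1.05 ± 0.38, adjusted p = 0.0483) at 18.1 to 31.5 CPM, against 32.5 to 91.5 CPM in TdTomato. The Il27ra call was lost without TdTomato 2 or 3 (adjusted p 0.0615 and 0.0526), with a log2 value of 4.52 without TdTomato 4. The Il11ra1 call was lost without TdTomato 1 (-0.55, adjusted p = 0.223), which held 91.5 CPM, and without any 1 of TdTomato 4, LATS_KO 4, LATS_KO 5 or YAP_OE 1 to 4 (0.0574 to 0.103).

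Among 10 kinases, STATs and adaptors, Gab1 was higher and Stat5b lower in LATS_KO, and Gab1 was higher in YAP_OE, with the other 8 passing in neither. That is 2 of 10 in LATS_KO, where 11.0% of all genes passed, and 1 of 10 in YAP_OE, below the 28.7% of all genes that passed. Gab1, a docking protein that couples gp130 to further kinases, was at 17.5 to 54 CPM in LATS_KO, 46.8 to 52.3 CPM in YAP_OE and 10.5 to 19.8 CPM in TdTomato. Its log2 fold change was 1.00 ± 0.30 (SE) in LATS_KO (edgeR, adjusted p = 0.0458) and 1.64 ± 0.32 in YAP_OE (adjusted p = 0.00336). Stat5b, a STAT activated mainly by growth hormone in liver, was at 44 to 60.2 CPM in LATS_KO and 62.2 to 89.4 CPM in TdTomato, and fell by 0.56 ± 0.16 (log2, adjusted p = 0.0303). The LATS_KO call of Gab1 was lost without any 1 library except LATS_KO 4, 5 or 6 (adjusted p 0.0568 to 0.139), and that of Stat5b without TdTomato 2, 3 or 4 or LATS_KO 1 or 2 (0.0581 to 0.102). The receptor sheddases Adam10 and Adam17 passed in no comparison in edgeR, and Adam10 had an unadjusted p of 0.0211 in YAP_OE against TdTomato.

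Of 9 inhibitors of the pathway, Ptprc was higher in LATS_KO and Ptprc and Socs1 in YAP_OE. These counts of 1 and 2 in 9 are near the share of all genes that passed, 11.0% in LATS_KO and 28.7% in YAP_OE. Ptprc encodes CD45, a phosphatase found on leukocytes, and was at 2.67 to 29.2 CPM in LATS_KO, 6.71 to 14 CPM in YAP_OE and 0 to 0.91 CPM in TdTomato. Its log2 fold change was 4.93 ± 0.95 (SE) in LATS_KO (edgeR, adjusted p = 0.00721) and 4.82 ± 0.95 in YAP_OE (adjusted p = 0.00356), and 6.06 and 5.96 without TdTomato 4. The LATS_KO call was lost in an edgeR fit of LATS_KO and TdTomato alone (adjusted p = 0.0745). Ptprc moved with the monocyte and macrophage markers given above. Socs1, a relative of Socs3, had 114 counts in YAP_OE and 3 in TdTomato, a ratio of 17.5 (exact 95% interval 5.85 to 86.3, counting error only), with a log2 fold change of 4.11 ± 1.06 (adjusted p = 0.0109). All 3 TdTomato counts of Socs1 were in TdTomato 4, and the log2 value without it was 7.14.

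Of the 15 genes of an immediate STAT3 target list, Myc, Tnfrsf12a, Bcl2l1, Mcl1 and Timp1 were higher and none was lower in LATS_KO, 5 of 15 where 11.0% of all genes passed in either direction. In YAP_OE the same 5 and Fos were higher, and Pim3 and Cebpb were lower, 6 and 2 of 15 where 17.9% of all genes were higher and 10.8% lower. The median log2 fold change was 0.47 in LATS_KO and 0.64 in YAP_OE, beside 0.13 and 0.17 over all genes tested. Many of these genes also answer to other pathways.

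Tnfrsf12a, the receptor of the cytokine TWEAK, was at 169, 129, 123, 12.5, 11.9 and 9.97 CPM in LATS_KO, 89.6 to 175 CPM in YAP_OE and 4.77 to 12.1 CPM in TdTomato. The 3 LATS_KO libraries in which Tnfrsf12a and Bcl2l1 were high were those in which Lifr was low and in which the cholangiocyte markers summed to 4443, 1971 and 1350 CPM, against 108 to 217 CPM in the other 3. The part of these cells in the target gene values was not tested. The log2 fold change of Tnfrsf12a was 3.27 ± 0.82 (SE) in LATS_KO (edgeR, adjusted p = 0.0199) and 4.03 ± 0.86 in YAP_OE (adjusted p = 0.00502). Mcl1, a survival factor, was at 169 to 308 CPM in LATS_KO, 253 to 388 CPM in YAP_OE and 103 to 153 CPM in TdTomato. Each of LATS_KO and YAP_OE lay above all TdTomato libraries, and they overlapped with each other. Its log2 fold change was 0.83 ± 0.23 in LATS_KO (adjusted p = 0.0314) and 1.37 ± 0.24 in YAP_OE (adjusted p = 0.00232). Bcl2l1, another survival factor, was at 236, 222, 169, 49.9, 52 and 47.2 CPM in LATS_KO and 35.8 to 47.1 CPM in TdTomato, a log2 fold change of 1.67 ± 0.46 (adjusted p = 0.0300). Fos, a subunit of AP-1, was at 311 to 661 CPM in YAP_OE and 22.2 to 129 CPM in TdTomato, a log2 fold change of 2.77 ± 0.65 (adjusted p = 0.00745).

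The 3 YAP_OE calls of Tnfrsf12a, Mcl1 and Fos were kept without any 1 library. The LATS_KO call of Tnfrsf12a was lost without TdTomato 2 or 3 (adjusted p 0.0688 and 0.0645), that of Mcl1 without TdTomato 1, 2 or 4 or LATS_KO 1 or 2 (0.0632 to 0.103), and that of Bcl2l1 without any 1 TdTomato library or LATS_KO 1 or 2 (0.0614 to 0.0809).

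The acute phase genes, plasma proteins of hepatocytes that IL-6 induces through STAT3, were lower more often than higher in YAP_OE. Of 22 genes, Hamp was higher and none was lower in LATS_KO, 1 in 22 where 11.0% of all genes tested passed in either direction. In YAP_OE, Cp was higher and Lbp, Fgg, Orm1, Saa3, Hpx and Fgl1 were lower. That is a share of 6 in 22 lower and 1 in 22 higher, where 10.8% of all genes tested were lower and 17.9% higher. The median log2 fold change of the 22 was -0.46 in LATS_KO and -1.21 in YAP_OE, beside 0.13 and 0.17 over all genes. With RLE in place of TMM factors the median of all genes in YAP_OE moved to 0.34. TdTomato 4 was the highest TdTomato library for every gene of the list except Cp. It held 7255 CPM of Saa1 and 417 CPM of Lbp, against TdTomato medians of 555 and 134 CPM. For Lbp and Fgl1 the lowest TdTomato values (64.98 and 294 CPM) lay below the highest YAP_OE values (82.95 and 457 CPM). For Fgg all TdTomato libraries (at least 3337 CPM) lay above YAP_OE (at most 2870 CPM). The list median and the calls of Lbp, Fgg and Fgl1 without TdTomato 4 are not reported here.

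Orm1 encodes an acid glycoprotein of plasma. It was at 32.4, 220, 306, 110 and 268 CPM in YAP_OE and 1238, 1071, 1018 and 2777 CPM in TdTomato, and fell by 3.03 ± 0.66 (log2, SE, edgeR adjusted p = 0.00564). Saa3, a serum amyloid A gene, was at 1.57, 2.3, 1.61, 0.822 and 6.51 CPM in YAP_OE and 40.1, 6.57, 6.04 and 77.9 CPM in TdTomato, and fell by 3.67 ± 0.92 (adjusted p = 0.00964). Hpx, the haem scavenger haemopexin, was at 2841 to 4713 CPM in YAP_OE and 6437 to 16214 CPM in TdTomato, and fell by 1.36 ± 0.37 (adjusted p = 0.0148). The TdTomato libraries were themselves uneven, with TdTomato 4 the highest for all 3 genes. Without TdTomato 4 the call of Hpx was lost (-0.93, adjusted p = 0.0728), and Saa3 was at -2.78 (adjusted p = 0.0461), or at -4.37 without YAP_OE 5. Counts of the near-identical Orm, Saa and Serpina3 genes are uncertain, since multiply mapped reads add to no gene. The 7 hepatocyte markers tested had a median log2 fold change of -1.41 in YAP_OE against TdTomato, beside -1.21 for the acute phase genes. Cps1 and Pck1 passed the test as lower, and Ttr (-1.41) and Apoa1 (-1.07) lay below TdTomato with no overlap but did not pass. The fall was not shown to be particular to the acute phase list, and the part of hepatocytes in it was not tested.

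Hamp encodes hepcidin, the hormone that limits iron uptake and a gene with STAT3 as well as BMP control. It was at 579, 727, 1359, 631, 715 and 1020.3 CPM in LATS_KO, 355, 300.1, 353, 260 and 362 CPM in YAP_OE and 368, 410, 399 and 556 CPM in TdTomato. The LATS_KO libraries lay above all others and the YAP_OE libraries below all others. Hamp was higher in LATS_KO than in TdTomato by 0.95 ± 0.27 (log2, SE, edgeR adjusted p = 0.0327) and was at -0.41 ± 0.27 in YAP_OE against TdTomato (adjusted p = 0.282). In YAP_OE against LATS_KO it fell by 1.36 ± 0.25 (adjusted p = 0.0165), the single gene of the pathway lists that passed in that comparison. The LATS_KO call was lost without any 1 TdTomato library (adjusted p 0.0507 to 0.0934), and the YAP_OE against LATS_KO call without YAP_OE 1, 2 or 4 (0.0548 to 0.0814) and with the replicate block (0.188).

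**Figure D4:**
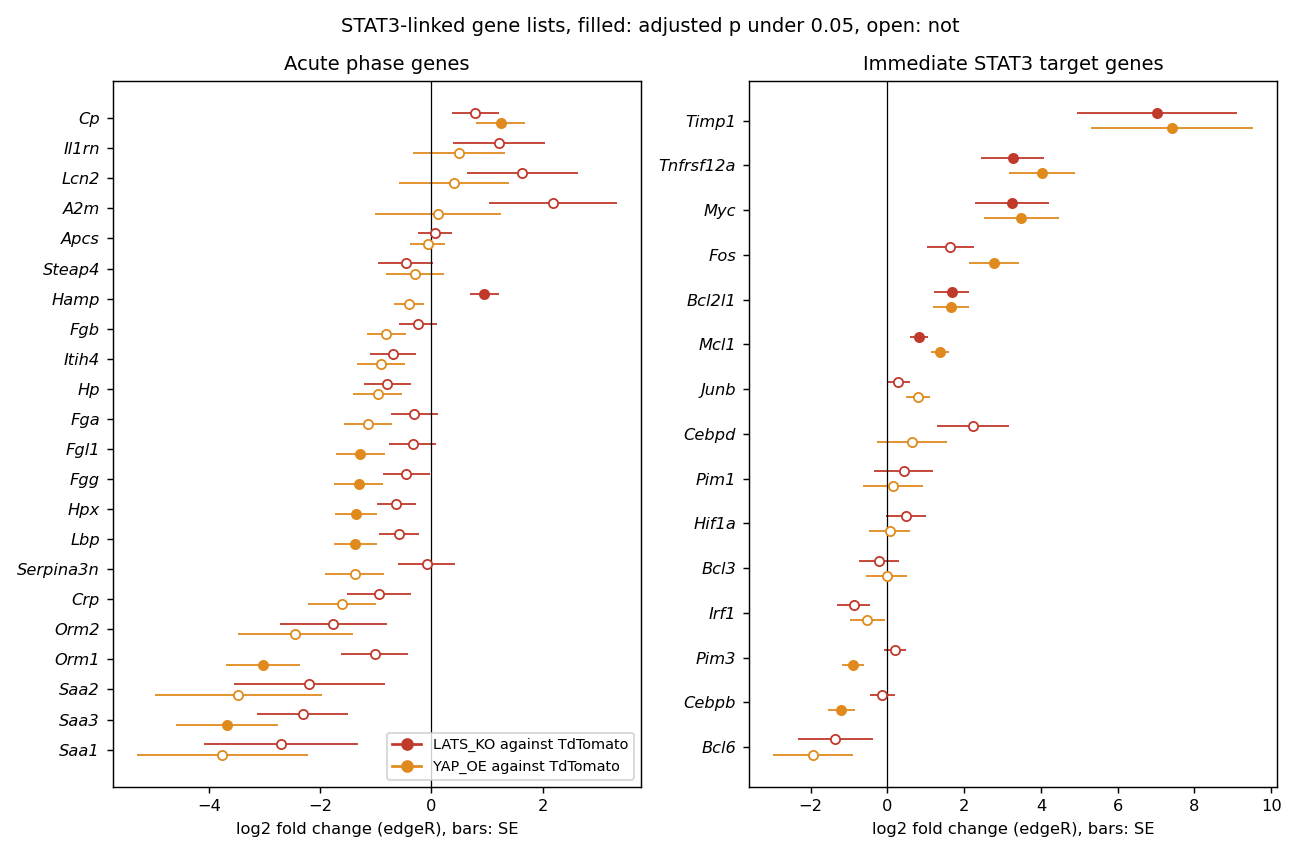
Log2 fold change (x axes, edgeR, bars are the SE) of 22 acute phase genes (left) and 15 immediate STAT3 target genes (right) in LATS_KO and in YAP_OE against TdTomato, ordered by the YAP_OE value. Filled points passed the test: most acute phase points lie below 0 in YAP_OE, with 6 passing as lower, and 6 target genes passed as higher.

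The genes most like each member were ranked over log2 CPM in 9402 candidates with a mean of at least 5 CPM, by the lower Pearson's r over all 15 libraries and over the 13 without TdTomato 1 and LATS_KO 3. These correlations are descriptions over libraries that share the group differences and depth. Lif was most like Sema3b (r = 0.991 over 15 libraries, 0.991 over 13), Mum1l1 and Fam83b. Osmr was most like Vill (0.974, 0.97), Sepn1 and Fosl2, an AP-1 subunit. Lifr was most like Acsm1 (0.991, 0.993), Hsd3b7 and Scp2, enzymes and a carrier of hepatocyte lipid and bile acid metabolism.

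The members that did not pass the test had other partners. Il6st was most like Pcnxl3 (0.984, 0.966), Tubgcp6 and Ankfy1. Klf13 and Zbtb16 were among the genes most like Il6ra. Stat3 was most like Atp11a (0.902, 0.923), C4b and Itih3, the last 2 being plasma protein genes. Socs3 had the least close partners, with Tmem82 first (0.78, 0.845). Between members, Lif and Osmr had r = 0.88 over 15 and 0.902 over 13 libraries, Lif and Lifr -0.729 and -0.912, and Stat3 and Socs3 0.184 and 0.269.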

How the data were processed

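Expression in liver was measured by poly(A) RNA sequencing with a directional kit, per the labels' protocols. The submitters' processing notes name mm10 and the tools FastQC, Trimmomatic and STAR, whose versions are not given in the sources used here. The authors deposited raw counts per gene in the layout of STAR, with an unstranded column and 1 for each strand. The reverse-strand column was chosen, since the forward column had 0.966% to 1.99% of the counts assigned by strand. Lines that name no gene (unmapped, multiply mapped, unassigned and ambiguous reads, 14.2% to 92.5% of a library) entered neither library sizes nor tests. Multiply mapped reads therefore add to no gene.

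From the deposited counts, CPM were computed with TMM factors. Genes kept by filterByExpr were tested in edgeR 4.0.16 (R 4.3.3; estimateDisp, robust glmQLFit, glmQLFTest), with 15 libraries in 1 fit, the group as the only term and 12 residual degrees of freedom. The SE is the size of the log2 change over the square root of the test statistic. Il6 and Osm, left out by the filter, were tested by exact permutation of mean CPM. The receptor ratios were tested in the same way. Folds against 0 counts are bounds against 3 counts over the group, and ratios against 1 to 3 counts have exact 95% intervals. The bounds take the counts of the higher group as exact, and the intervals cover counting error only. Neither covers the spread between libraries. No pair of replicates agreed within sampling noise. The fit was checked on simulated counts.

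The genes, lists and comparisons were chosen with earlier results of these data known. Named list genes are those with the smallest adjusted p, up to 3 a list in each comparison with TdTomato, and up to 2 past the threshold in YAP_OE against LATS_KO. Other genes were named as part of a count or after their values were seen, such as Il11, Ctf1 and Ctf2. For likeness, log2 CPM had a prior count of 2, and Riken, Gm-numbered and mitochondrial genes were passed over. Coordinates are from GENCODE M21 (mm10, also called GRCm38). Alternatives were RLE factors, DESeq2 1.42.0, limma 3.58.1 voom with quality weights, other filters (none, or at least 10 counts in 4 libraries), the unstranded column, fits restricted to a pair of groups, a replicate block, and leaving out libraries. Results for some of the listed or ranked genes are not reported here.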

Additional observations from a re-analysis of the deposited data

Results flagged for a closer look

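Of 25 sets of CPM values of 1 gene in 1 group that were examined for a library far from the others, 3 held one. The rule flags about 1 in 20 by chance for continuous, normally spread values. That rate does not hold for sets of very few counts, such as those of Il6 and Lif. Il6 was at 0.196 CPM in YAP_OE 5, through 5 counts, and at most 0.0374 CPM in the other YAP_OE libraries. Lif was at 0.0794 CPM in TdTomato 3, through 1 count, and at 0 in the other TdTomato libraries, and this count sets the Lif ratios against TdTomato. Lifr was at 244 CPM in TdTomato 1, a library with mostly unmapped reads, and at no less than 413 CPM in the other TdTomato libraries. The YAP_OE call of Lifr was kept without TdTomato 1.

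Hamp, which encodes hepcidin, differed between YAP_OE and LATS_KO by a test of the difference itself, with a log2 fold change of -1.36 (edgeR, adjusted p = 0.0165). It was higher in LATS_KO than in TdTomato (0.95) and was at -0.41 in YAP_OE, where it did not pass. The cause was not tested.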

How the results depend on the processing

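The calls of Lif, Osmr and Lifr in YAP_OE against TdTomato were kept under all alternatives run. Those of Lif and Osmr in LATS_KO were not, as given beside them. The LATS_KO calls of Clcf1, Stat5b, Gab1, Ptprc, Tnfrsf12a, Bcl2l1, Mcl1 and Hamp were also each lost under some alternatives beyond leaving out 1 library. So was the YAP_OE call of Il11ra1, with RLE factors, no filter or the unstranded column. In LATS_KO against TdTomato, 1438 genes passed (91.2% of them higher), against 2894 in DESeq2, 3504 in limma voom (60.2% higher), 1 in a fit of only these groups (2013 at an unadjusted p under 0.05), 740 with the replicate block, 2245 without TdTomato 1 and LATS_KO 3, and 588 to 1798 without 1 library. Of the members 2 passed, against 0 in the fit of only these groups, 0 with the replicate block, and 0 to 2 without 1 library. In the fit of only these groups, Lif did not enter. In YAP_OE against TdTomato, 3744 genes passed, against 8872 in voom, 6416 without TdTomato 1 and LATS_KO 3 and 2585 to 4973 without 1 library, and 3 to 4 members passed without 1 library. In YAP_OE against LATS_KO, 129 genes passed, against 779 in DESeq2, 7325 in voom, 13 with the replicate block, 1688 without TdTomato 1 and LATS_KO 3 and 36 to 389 without 1 library. No member passed there without any 1 library, and 5 did in voom: Lif, Il6st and Osmr higher, Lifr and Socs3 lower. The cause of these moves was not tested. Changes of sign were limited to values that did not pass in edgeR. Il6st in LATS_KO was at -0.61 in voom, -0.0064 in the fit of only these groups, -0.35 without TdTomato 1 and LATS_KO 3 and between -0.32 and 0.27 without 1 library. In YAP_OE without TdTomato 1 and LATS_KO 3, Il6ra was at -0.0011, Il6st at -0.051 and Socs3 at -0.048, and without 1 library they ranged from -0.0013 to 0.53, -0.051 to 0.54 and -0.048 to 0.66. The YAP_OE minus LATS_KO difference in mean CPM ranged from -0.051 to 0.012 for Il6 and from -0.035 to 0.045 for Osm without 1 library. The replicate numbers did not pair the libraries: over 13 same-numbered pairs, the correlation of deviations from the group means ran from -0.249 to 0.232, with 4 over 0.1, and 1 library correlated best with its own number. With 0 to 17 counts a group, Il6 and Osm are limited by depth.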
